A study of Homo sapiens with 6 samples.

Results

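DCBLD2 (ENSG00000057019.15) held 428 of the 16230 Argonaute crosslink sites listed for HK2 cells, more than any other gene name in the deposited table. The sites were taken by gene symbol and split by the feature that the authors gave each position. That left 323 intronic sites, 58 sites in the 3' UTR, 45 coding sites and 2 sites in an extended 3' UTR. The gene lies on the minus strand of chromosome 3, where RefSeq (GRCh38.p14) places it from 98795941 to 98901695, a length of 105.755 kb. The sites run from 98795036 to 98901162 on hg38, and the 2 extended 3' UTR sites lie beyond the RefSeq 3' end. DCBLD2 was chosen by its crosslinked reads summed over the 4 Argonaute libraries, so its number of sites, its level and its rank are descriptions and carry no test.

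HK2 is an immortalised line of human kidney proximal tubule epithelium, and TGF-beta1 is a cytokine that drives matrix production and loss of epithelial character in such cells. Argonaute complexes were recovered by PAR-CLIP, in which 4-thiouridine in the RNA is crosslinked by ultraviolet light to bound protein and the crosslinked T is read as a base change. The groups were cells treated with TGF-beta1 at 20 ng/mL for 24 h (2 anti-Argonaute libraries) and control cells, for which the labels list no treatment (2 anti-Argonaute libraries). All cells, controls included, were serum starved for 24 h, labelled with 100 uM 4-thiouridine for 20 h and irradiated at 365 nm. Another 2 libraries, from an IgG pull-down of control cells, were not analysed here. Whether the 2 replicates of a group are separate cultures is not stated in the labels, and the spread behind each p-value may be technical. The identity of the line was not checked against marker genes. The amount of DCBLD2 RNA was not analysed either, so more RNA and more Argonaute per RNA molecule cannot be told apart in any value below.

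DCBLD2 encodes a membrane-spanning receptor-like protein with CUB, LCCL and discoidin domains, related in its outer part to the neuropilins, which bind semaphorins and growth factors. It has been studied as a gene induced in injured vessel walls and as a regulator of receptor tyrosine kinase signalling. Argonaute is the protein that carries microRNAs: nucleotides 2 to 8 of the microRNA, the seed, pair with the target, most often in the 3' UTR of a mature mRNA in the cytoplasm. Introns are removed from the transcript by splicing in the nucleus.

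The sequences at the 3 most crosslinked sites of the gene, all in the 3' UTR, are shown because they carried at least 55.4% of its 3' UTR crosslinks in every library. Each is 29 nt of the transcript strand, 5′ to 3′, from the deposited table. The crosslinked T is at position 15 and capitals mark the authors' best seed match.
chr3:98796127-98796155, 0.2 kb from the gene's 3' end, let-7 match: agaatgtacttatctTACCTCggcatgta
chr3:98796642-98796670, 0.715 kb from the 3' end, miR-148/152 match: tcatgtttcactgttTGCACTttgcattg
chr3:98798189-98798217, 2.262 kb from the 3' end, miR-17/20a/93/106b match: ggactgcgtgatcgtGCACTTTgtgtggt
Another 3' UTR sequence is set beside them because it shares letters with the second and the third, a choice made after its sequence was seen.
chr3:98799087-98799115, 3.160 kb from the 3' end, miR-17/20a/93/106b match: aaagctccctataatGCACTTcagagaaa

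The microRNAs named at these sites have the following mature sequences in RefSeq (GRCh38.p14), with the seed in capitals. All 3 names looked up had an entry.
hsa-let-7a-5p: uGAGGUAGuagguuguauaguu
hsa-miR-148a-3p: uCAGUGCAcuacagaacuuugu
hsa-miR-17-5p: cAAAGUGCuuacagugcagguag
The let-7 site pairs with microRNA nucleotides 2 to 7, and the crosslinked T faces nucleotide 8. The site at 0.715 kb pairs with nucleotides 3 to 8 of miR-148a-3p, and the crosslinked T faces nucleotide 9. The same window also holds GCACTTT, the complement of nucleotides 2 to 8 of miR-17-5p, which the authors list there as a further match, along with miR-128-3p. The seed of miR-128-3p has 5023 microRNA RPM in the authors' table, above both other families at this site. The site at 2.262 kb holds GCACTTT 1 nt closer to the crosslink, with the T facing nucleotide 9 of miR-17-5p. The miR-148 and miR-17 matches overlap within TGCACTT, so reads at a window with these letters cannot be given to one family, and at 0.715 kb miR-128-3p is a further candidate in the authors' list.

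TGCACTT was found in 3 of the 58 DCBLD2 windows of the 3' UTR, those at 0.715, 2.262 and 3.160 kb. The letters were taken from the windows at 0.715 and 2.262 kb. This count and the read shares below therefore describe windows chosen from the same data. These windows are the authors' 31 nt around each crosslinked T, read on the transcript strand. Among the 6274 windows of 3' UTR sites in other genes, 2.52% held it. On the opposite strand it was in 0 of the 58 DCBLD2 windows and in 0.143% of the others. GCACTTT was in 2 of the 58 windows, against 2.42% of the windows in other genes. The 3 windows with TGCACTT carried 34.8% and 38.5% of the 3' UTR crosslinked reads of DCBLD2 in the TGF-beta1 libraries and 43.4% and 42.6% in the control libraries. The TGF-beta1 shares were both below the control shares, and the exact permutation test (two-sided) had p = 0.33, the smallest that 2 libraries against 2 can give. TACCTC, the let-7 match to nucleotides 2 to 7, was in 1 of the 58 windows, against 3.27% in other genes.

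The 4 Argonaute libraries differed in depth and in their scaling. TGF-beta1 replicates 1 and 2 had 5293207 and 3415700 reads, and control replicates 1 and 2 had 1714444 and 1926254. Levels below are crosslinked RPM, which is reads scaled to the size of the library, after TMM scaling, which divides out a composition factor of each library, and are called scaled RPM. For gene totals that factor was 0.666 and 1.03 in the TGF-beta1 libraries and 1.05 and 1.38 in the control libraries. Without TMM the median log2 difference of all 1266 genes tested, TGF-beta1 over control, was −0.45, against 0.02 with it. Reads were not marked by molecular identifiers, so intervals cover counting error only.

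DCBLD2 as a whole had 1569 and 1250 crosslinked reads in the TGF-beta1 libraries and 662 and 787 in the control libraries. In scaled RPM these were 445 and 356 in TGF-beta1 cells, against 366 and 295 in control cells. The lower TGF-beta1 library lay below the higher control library, so the groups overlapped. The means were 400.5 ± 63.1 in TGF-beta1 cells and 331 ± 50.2 in control cells (SD, n = 2 each), a log2 difference of 0.28 ± 0.19 (SE) with a limma adjusted p of 0.574. Of all genes tested, 3.08% passed an adjusted p of 0.05 in either direction, and DCBLD2 did not. Without TMM scaling the log2 difference was −0.27, the opposite sign. DCBLD2 ranked first of all genes by this level, and the nuclear RNA MALAT1 came next with 302 ± 133 in TGF-beta1 cells and 273 ± 126 in control cells, a gap smaller than the spread between its own libraries.

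The 3' UTR sites lie together at one end of the gene, while coding and intronic sites alternate over nearly the same stretch. The 58 sites of the 3' UTR fill 3.17 kb with a median gap of 39 nt. The 323 intronic sites spread over 99.8 kb with a median gap of 101 nt and no gap over 3496 nt. The 45 coding sites span 101.757 kb in 11 runs with no intronic site between their members, the largest run holding 11 sites. Intronic sites had a median of 5 crosslinked reads over the 4 libraries and at most 28. Coding sites had a median of 6 and at most 32, and 3' UTR sites a median of 10.5 and at most 431.

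**Figure D1:**
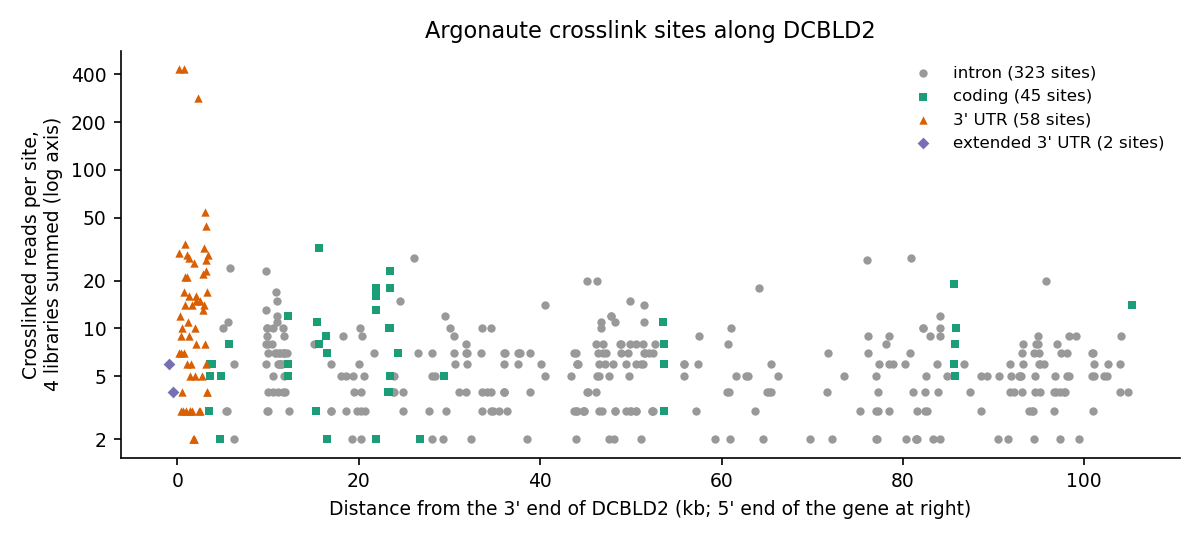
Crosslinked reads per DCBLD2 site, summed over the 4 Argonaute libraries (log axis), against distance from the gene's 3' end in kb, with one point per site and colour and shape for the annotated feature. The 3 sites with 285 to 431 reads stand in the 3' UTR, and intronic sites of 2 to 28 reads cover the rest of the gene.

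The 3' UTR, where most microRNA target sites act, had group means that differed by less than the SD of the TGF-beta1 libraries. Its level was 169 and 156 scaled RPM in TGF-beta1 cells, against 165 and 168 in control cells, and the groups overlapped. Means were 162 ± 9.11 in TGF-beta1 cells and 167 ± 2.48 in control cells (SD, n = 2 each). The log2 difference was −0.04 ± 0.20 (SE), with a limma adjusted p of 0.955. Without TMM scaling it was −0.59 (limma adjusted p = 0.595), and without TGF-beta1 replicate 2 it was 0.11, so its sign is not settled.

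Intronic sites, which lie in sequence that splicing removes, had 822 and 581 crosslinked reads in the TGF-beta1 libraries and 310 and 273 in the control libraries. That was 236 and 164 scaled RPM in TGF-beta1 cells, against 173 and 100.4 in control cells. TGF-beta1 replicate 1 was the highest and control replicate 2 the lowest, and TGF-beta1 replicate 2 lay below control replicate 1. Means were 200.5 ± 50.9 in TGF-beta1 cells and 137 ± 51.6 in control cells (SD, n = 2 each), a ratio of 1.46. The log2 difference was 0.58 ± 0.25 (SE), with an unadjusted p of 0.0361 and a limma adjusted p of 0.263, and the class did not pass. Over all 1227 gene and feature sums tested, 5.46% passed the adjusted threshold in either direction, and 7.91% had an unadjusted p under 0.05 with a higher TGF-beta1 level. Single libraries decided this value. A fit without 1 library leaves a single library in a group, so only its effect size is given. Without control replicate 1 the log2 difference was 1.01 and without TGF-beta1 replicate 2 it was 0.92. Without TGF-beta1 replicate 1 it was 0.37 and without control replicate 2 it was 0.18. Without TMM scaling it was 0.02. With covering reads it was 0.85, and 0.30 at sites crosslinked in all 4 libraries, a setting chosen after the data were seen.

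Coding sites had 158 and 116 crosslinked reads in the TGF-beta1 libraries and 53 and 54 in the control libraries. In scaled RPM they stood at 45.4 and 32.8 in TGF-beta1 cells, against 29.6 and 19.9 in control cells. Both TGF-beta1 libraries were above both control libraries, as they were in 21.9% of all gene and feature sums tested. Means were 39.1 ± 8.92 in TGF-beta1 cells and 24.8 ± 6.91 in control cells (SD, n = 2 each), a ratio of 1.58. The log2 difference was 0.65 ± 0.29 (SE), with a limma adjusted p of 0.265, and the class did not pass. Without control replicate 1 it was 0.97, and without control replicate 2 it was 0.36. Without TMM scaling it was 0.11. Covering reads at sites crosslinked in all 4 libraries, an alternative chosen after the data were seen, gave −0.001. The 2 extended 3' UTR sites, at 98795036 and 98795456 and with no seed match, had 2 and 2 reads in the TGF-beta1 libraries and 4 and 2 in the control libraries and were too low to test.

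**Figure D2:**
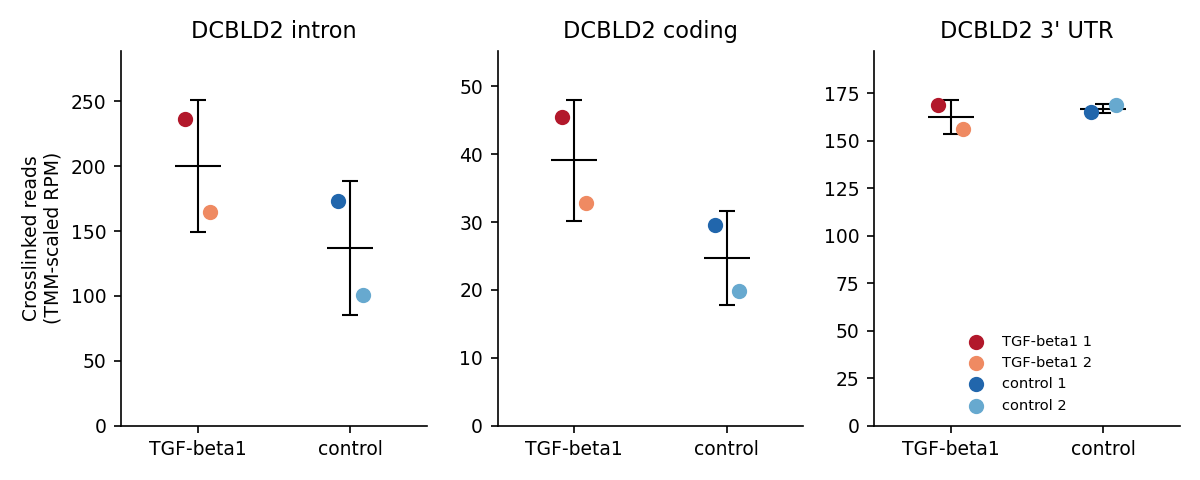
Crosslinked reads of DCBLD2 in TMM-scaled RPM (linear axes from 0) at intronic, coding and 3' UTR sites, with one point per library and bars for the mean and SD of 2 libraries. Intronic values are 236 and 164 in TGF-beta1 cells against 173 and 100.4 in control cells, and no class passed the limma test.

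Shares within the gene need no scaling between libraries, but the site list is pooled over libraries of unequal depth. Intronic sites held 52.4% (Wilson 95% interval 49.9 to 54.9) and 46.5% (43.7 to 49.3) of the DCBLD2 crosslinked reads in TGF-beta1 cells. In control cells they held 46.8% (43.1 to 50.6) and 34.7% (31.4 to 38.1), so the groups overlapped (exact two-sided permutation p = 0.667). The 3' UTR share was 37.4% and 44.1% in TGF-beta1 cells, against 44.6% and 58.2% in control cells, and the coding share 10.1% and 9.28% against 8.01% and 6.86%. Neither group of 2 overlapped the other for these shares, with an exact permutation p of 0.33 for each, the smallest possible. At sites crosslinked in all 4 libraries the 3' UTR difference, TGF-beta1 minus control, was −4.38 percentage points, against −10.63 over all sites, and the groups overlapped (exact permutation p = 0.667). The coding difference there was −0.24 points, against 2.24, and the intronic difference 4.62 points, against 8.68. The 3' UTR groups also overlapped without the fully crosslinked sites described below (−10.03 points, exact permutation p = 0.667). Without the 3 most crosslinked 3' UTR sites the 3' UTR difference was −4.55 points (exact permutation p = 0.33) and the intronic difference 3.56 points. The 3' UTR difference was −3.82 points without control replicate 2 and −17.45 points without control replicate 1. For the 3' UTR, the nearest libraries were TGF-beta1 replicate 2 and control replicate 1, whose Wilson 95% intervals overlapped, from 41.4 to 46.8 and from 40.8 to 48.4.

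The gene's introns also took a large part of all intronic crosslinks. DCBLD2 held 9.01% of the intronic sites of the table, and 10.0% and 9.31% of all intronic crosslinked reads in the TGF-beta1 libraries, against 8.66% and 7.5% in the control libraries. Its share of all 3' UTR crosslinked reads was 1.40% and 1.26% in the TGF-beta1 libraries and 1.35% and 1.28% in the control libraries. Other genes with many intronic sites included PLCB4 with 77, TRIO with 69 and BICC1 with 55. TRIO introns stood at 45.7 and 33.7 scaled RPM in TGF-beta1 cells, against 40.3 and 23.5 in control cells, and the groups overlapped. They were below the DCBLD2 introns in each library. PLCB4 and BICC1 introns had both TGF-beta1 libraries below both control libraries. PLCB4 stood at 27.04 and 21.80 scaled RPM in TGF-beta1 cells, against 64.31 and 37.89 in control cells. BICC1 stood at 24.45 and 20.95 in TGF-beta1 cells, against 32.43 and 24.64 in control cells.

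Over 10-kb steps from the 3' end, intronic sites were found in all 11. The step from 40 to 50 kb held the most, with 53 sites and 346 reads, and the last step, from 100 to 110 kb, the fewest, with 13 sites and 72 reads. In the step from 40 to 50 kb the level was 45.9 and 29.1 scaled RPM in TGF-beta1 cells, against 31.6 and 13.1 in control cells. In scaled RPM, TGF-beta1 replicate 1 was the highest library in 11 of 11 steps and control replicate 2 the lowest in 9 of 11. The intronic sum had the same highest and lowest library. The steps are parts of that sum and were all scaled by the same factor per library, so their agreement is not separate evidence. Before TMM scaling the sum was 155 and 170 RPM in TGF-beta1 cells, against 181 and 142 in control cells. TGF-beta1 replicate 1 was then below control replicate 1.

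**Figure D3:**
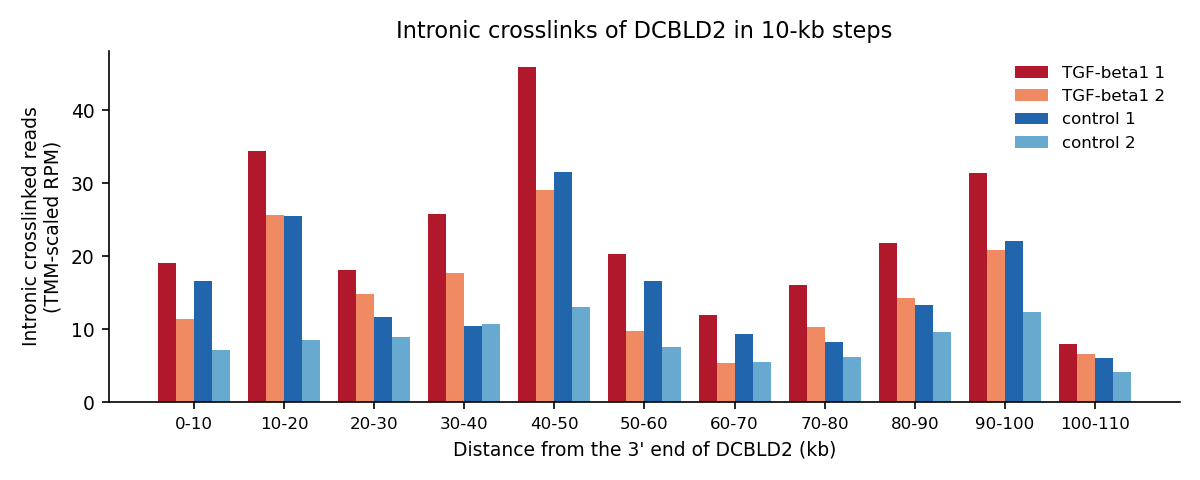
Intronic crosslinked reads of DCBLD2 in TMM-scaled RPM for each 10-kb step from the gene's 3' end, with one bar per Argonaute library (TGF-beta1 replicates left of control replicates; no error bars, since each bar is 1 library). After TMM scaling TGF-beta1 replicate 1 has the highest bar in 11 of 11 steps, and the step from 40 to 50 kb has the highest values. Before TMM scaling that library was below control replicate 1 in the intronic sum.

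Crosslinked reads can be set against all reads that cover the same position, the second readout of the table. The covering value is 0 wherever a library had no crosslink, so the ratio is taken over sites crosslinked in that library. At DCBLD2 introns 8.49% and 10.8% of covering reads were crosslinked in TGF-beta1 cells, against 15.3% and 14.3% in control cells. At coding sites the ratio was 8.37% and 11.2% in TGF-beta1 cells, against 10.4% and 10.6% in control cells. At 3' UTR sites it was 13.8% and 14.6% in TGF-beta1 cells, against 16.2% and 19.2% in control cells. In all other genes together it was 21.3% and 24.3% at introns in the TGF-beta1 libraries and 28.9% and 32.0% in the control libraries. DCBLD2 was below the sum of the other genes in each of the 4 libraries, for introns as for coding and 3' UTR sites. PLCB4 introns were at 17.5% and 27.4% in TGF-beta1 cells, against 22.5% and 22.6% in control cells. They were below that sum except in TGF-beta1 replicate 2, and TRIO introns except in control replicate 1. BICC1 introns were below it only in control replicate 2. An intronic ratio below the sum was therefore not particular to DCBLD2. At introns and in the 3' UTR the ratio was lower in both TGF-beta1 libraries, the deeper ones, than in both control libraries, in DCBLD2 as in the other genes, and the part of depth in this was not tested.

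**Figure D4:**
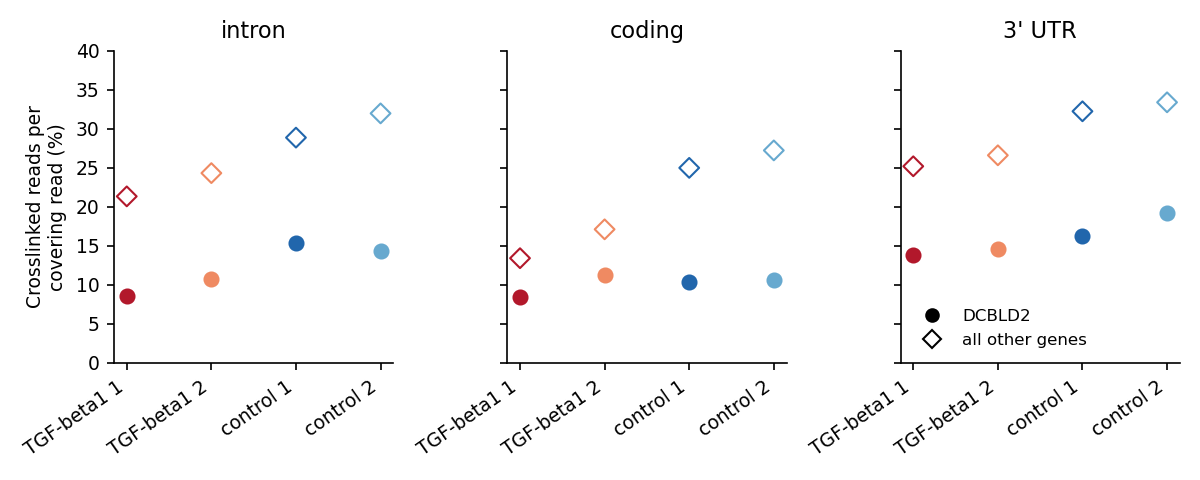
Crosslinked reads as a percentage of covering reads, by feature and Argonaute library, for DCBLD2 (filled circles) and for all other genes together (open diamonds). DCBLD2 introns are at 8.49% to 15.3% and the other genes' introns at 21.3% to 32.0%.

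Part of that difference lay in sites where every covering read carried the crosslink. Among DCBLD2 introns 8 of 323 sites were of this kind (2.48%), against 31.5% of the 3263 intronic sites in other genes. PLCB4 introns had 0 of 77, TRIO introns 13.0% and BICC1 introns 18.2%, so a low share was not particular to DCBLD2. None of the coding or 3' UTR sites of DCBLD2 were of this kind, against 4.07% of coding and 3.54% of 3' UTR sites in other genes. Without such sites the intronic ratio of DCBLD2 was 7.80% and 10.1% in TGF-beta1 cells, against 14.9% and 13.4% in control cells. In the other genes it was then 15.7% and 18.6% in TGF-beta1 cells, against 22.6% and 25.3% in control cells, still above DCBLD2 in each library. The median intronic site was covered by 51 reads over the 4 libraries in DCBLD2, against 12 in other genes.

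Only 6 of the 428 sites had enough reads to be tested one by one, all in the 3' UTR, and none passed, where 7.18% of all 1059 sites tested passed in either direction by limma. None of the 6 had an unadjusted p under 0.05, against 19.3% of all sites tested. The let-7 site at 0.2 kb had 126 and 126 crosslinked reads in the TGF-beta1 libraries and 50 and 129 in the control libraries. That was 38.8 and 35.98 scaled RPM in TGF-beta1 cells, against 27.7 and 44.4 in control cells, so the TGF-beta1 values lay between the control values. Its log2 difference was 0.09 ± 0.25 (SE), with a limma adjusted p of 0.890. let-7 is an abundant epithelial microRNA family, and the authors give 97405 microRNA RPM for its seed.

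The site at 0.715 kb, with the overlapping miR-148 and miR-17 matches, had 111 and 146 reads in the TGF-beta1 libraries and 66 and 108 in the control libraries. Its level was 34.2 and 41.7 scaled RPM in TGF-beta1 cells, against 36.6 and 37.2 in control cells, with the control values inside the range of the TGF-beta1 values. Its log2 difference was 0.03 ± 0.23 (SE), with a limma adjusted p of 0.957. Both leading sites had 431 reads and shared rank 25 among all sites of the table. Their small differences turned negative without TMM scaling, to −0.56 at the let-7 site and −0.61 at the site at 0.715 kb.

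The miR-17 site at 2.262 kb had 88 and 56 reads in the TGF-beta1 libraries and 57 and 84 in the control libraries. It stood at 27.1 and 15.99 scaled RPM in TGF-beta1 cells, against 31.6 and 28.9 in control cells, both TGF-beta1 libraries below both control libraries, as at 24.5% of all sites tested. Its log2 difference was −0.51 ± 0.28 (SE), with a limma adjusted p of 0.314. Without TGF-beta1 replicate 2 it was 0.01. The miR-17 family, which promotes proliferation, has 3425 microRNA RPM for its seed in the authors' table and the miR-148 family 2618. The ratio of crosslinked to covering reads over the 4 libraries was 26.5% at the let-7 site, 42.7% at the site at 0.715 kb and 50.2% at the miR-17 site.

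The other 3 tested sites were far lower. The site at 3.071 kb, with no seed match, had 22 and 7 reads in the TGF-beta1 libraries and 10 and 15 in the control libraries, and its libraries overlapped (limma adjusted p = 0.742). The site at 3.117 kb, with a miR-103a match, had 4 and 20 reads in the TGF-beta1 libraries and 5 and 15 in the control libraries, so replicate 2 was the higher library in both groups (limma adjusted p = 0.820). The site at 1.814 kb, with a match to miR-200b, a microRNA that maintains epithelial character, had 4 and 6 reads in the TGF-beta1 libraries and 8 and 8 in the control libraries. Its level was 1.23 and 1.71 scaled RPM in TGF-beta1 cells, against 4.43 and 2.75 in control cells, with a log2 difference of −0.88 ± 0.58 (SE) and a limma adjusted p of 0.439. Without control replicate 1 it was −0.56. Both TGF-beta1 libraries were below both control libraries there, as at 24.5% of all sites tested, on at most 8 reads a library.

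**Figure D5:**
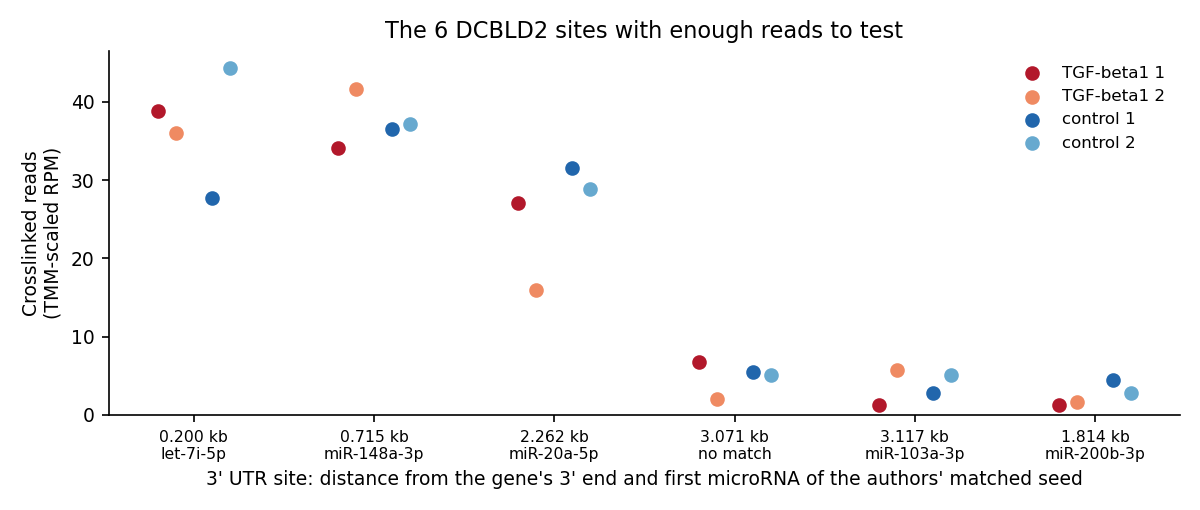
Crosslinked reads in TMM-scaled RPM (linear axis from 0) at the 6 DCBLD2 sites tested, one point per Argonaute library, TGF-beta1 left of control, labelled by distance from the gene's 3' end and by the first microRNA of the matched seed. At the let-7 site TGF-beta1 cells are at 38.8 and 35.98 and control cells at 27.7 and 44.4, and none of the 6 sites passed the limma test.

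The 3 leading sites together held 55.4% and 59.5% of the 3' UTR crosslinked reads in TGF-beta1 cells, against 58.6% and 70.1% in control cells (exact permutation p = 0.667). Crosslinking in the introns had no such peaks. The 3 most crosslinked intronic sites held 4.38% and 4.82% of the intronic reads in TGF-beta1 cells, against 1.94% and 4.76% in control cells.

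Those intronic sites are shown because they were all of the kind where every covering read was crosslinked, unlike the great majority of DCBLD2 introns. Where every covering read carries the base change, a crosslink cannot be told apart from a sequence difference of the cell line or a misplaced read, so these reads are crosslinks only as the table lists them. Capitals mark a seed match, and the listed T is at position 15.
chr3:98876852-98876880, miR-27 match around the crosslink: tttctggaaatcACtGTGcatcattttgt
chr3:98821962-98821990, no match: cactgcaacctctgtattctggtttcaag
chr3:98871917-98871945, no match: aaaaaatctcccaatgacaacaacaacaa
At the first site the authors also list a match to miR-128-3p, so its reads cannot be given to one family. It had 11 and 6 reads with the change in the TGF-beta1 libraries and 3 and 8 in the control libraries. The second had 12 and 10 in the TGF-beta1 libraries and 2 and 4 in the control libraries. The third had 13 and 12 in the TGF-beta1 libraries and 1 and 1 in the control libraries. In scaled RPM the third stood at 4.00 and 3.43 in TGF-beta1 cells, against 0.554 and 0.344 in control cells, and all 3 were too low to test. The 8 fully crosslinked sites held 7.2% of the intronic reads of the gene, and without them the intronic log2 difference was 0.55.

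The most crosslinked coding site, at 98811508, had 6 and 9 reads in the TGF-beta1 libraries and 6 and 11 in the control libraries. The next, at 98819386, had 12 and 9 reads in the TGF-beta1 libraries and 1 and 1 in the control libraries, 3.69 and 2.57 scaled RPM against 0.554 and 0.344, and was too low to test. Neither had a seed match. The next, at 98881586, with a full seed match to miR-26, had 6 and 4 reads in the TGF-beta1 libraries and 2 and 7 in the control libraries. The authors list the miR-17 family there as a further match. The sequence of this site is shown as the leading coding site with a seed match.
chr3:98881572-98881600, miR-26 match: tcttgtcactttaatTACTTGAgaattta

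Fewer sites had reads in the shallower control libraries. Crosslinked reads were present at 379 and 343 of the 428 sites in the TGF-beta1 libraries, against 235 and 235 in the control libraries. Of the intronic sites, 74 of 323 had no crosslinked read in either control library (22.9%), against 2 with none in either TGF-beta1 library, and 44 had reads in all 4 libraries. In other genes 19.6% of intronic sites had none in either control library. Of the coding sites, 8 of 45 had none in either control library and 11 had reads in all 4. Of the 3' UTR sites, 8 of 58 had none in either control library and 27 had reads in all 4.

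The share of sites with a seed match was lower at DCBLD2 than at the sites of all other genes together, in each of the 3 classes. No match was listed at 52.3% of its intronic sites, 53.3% of its coding sites and 39.7% of its 3' UTR sites. The same shares in other genes were 46.2%, 40.2% and 26.7%. A match to all of nucleotides 2 to 8 was listed at 9.29% of its intronic sites, 8.89% of its coding sites and 13.8% of its 3' UTR sites, against 11.1%, 15.6% and 27.1% in other genes. The authors call a match adjacent where it starts next to the crosslinked T, by 0 to 2 nt among the DCBLD2 sites. Adjacent matches were at 10 of the 323 intronic sites (3.10%), 4 of the 45 coding sites (8.89%) and 11 of the 58 3' UTR sites (19.0%), against 9.38%, 20.1% and 35.6% in other genes. Sites of 1 gene share its transcript, so these shares are descriptions with no test.

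The reads were less even than the sites. The 11 adjacent sites of the 3' UTR carried 1278 crosslinked reads, of which 1147 were at the 3 leading sites. The 10 adjacent intronic sites carried 66. Sites with any seed match held 82.3% and 86.4% of the 3' UTR reads in TGF-beta1 cells, against 86.1% and 91.3% in control cells. At introns they held 44.4% and 46.8% in TGF-beta1 cells, against 47.7% and 53.5% in control cells (exact permutation p = 0.33). Over the whole gene the share was 58.3% and 63.9% in TGF-beta1 cells, against 64.2% and 74.5% in control cells, and an exact permutation test gave p = 0.33. At sites crosslinked in all 4 libraries that difference was −5.51 percentage points, against −8.24 over all sites, and the groups overlapped (exact permutation p = 0.667).

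Many seed families were spread thinly over the gene. The authors' best matches named 36 families at DCBLD2 sites, 35 of them at introns, 15 at coding sites and 22 in the 3' UTR. At introns miR-27 had the most sites, 11 with 113 reads, followed by miR-221/222 with 10 sites and 55 reads. The miR-27 sites include the fully crosslinked site at 98876866, with 28 reads, and the lead in number of sites rests on it. miR-21, the most abundant seed in the authors' count with 376262 microRNA RPM, had 1 site with 14 reads in the 3' UTR. In the 3' UTR the miR-17 family and miR-23 had 3 sites each, with 321 and 53 reads.

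The base before the crosslinked T was A at 46.6% of the 3' UTR sites of DCBLD2 and 31.9% of its intronic sites, against 42.1% and 33.8% in other genes. The base after it was G at 46.6% and 48.0%, against 44.1% and 49.0%. T made up 29.3% of the intronic windows of DCBLD2 and 31.03% of those in other genes.

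The division of crosslinks over features was set against that of other genes. Over the 4 libraries in RPM, 44.5% of its crosslinks were intronic, 8.43% coding and 46.8% in the 3' UTR. Among 213 genes with at least 200 crosslinked reads, the closest by total variation distance were TBL1XR1 (0.197), NRIP1 (0.286) and TRIO (0.291), against a median distance of 0.524. TBL1XR1, a transcriptional cofactor, had 27.2% intronic and 66.5% 3' UTR crosslinks. By the pattern of log2 levels over the 4 libraries, the closest of 1265 other genes included TARBP2 (0.036) and LAPTM4B (0.052), against a median distance of 0.799. LAPTM4B stood at 46.8 and 37.9 scaled RPM in TGF-beta1 cells, against 39.8 and 32.2 in control cells, the same order of libraries as DCBLD2. With 4 libraries these distances are descriptions.

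A list of 25 genes tied to DCBLD2 by family or signalling, among them neuropilins, plexins, semaphorins, receptor kinases and their adaptors, was set beside it. Of these, 11 had a crosslink site and 4 had enough reads to test, and 0 passed the adjusted threshold in either direction by limma, with 1, EGFR, at an unadjusted p of 0.05. Of all genes tested, 3.08% passed the adjusted threshold in either direction, and 7.58% had an unadjusted p under 0.05 with a lower TGF-beta1 level. The median log2 difference of the 4 was −0.12, against 0.02 for all genes tested. EGFR, the epidermal growth factor receptor, stood at 5.39 and 5.41 scaled RPM in TGF-beta1 cells, against 11.6 and 8.62 in control cells, a log2 difference of −0.78 ± 0.35 (SE) with a limma adjusted p of 0.362. For EGFR that difference was −0.09 with covering reads (limma adjusted p = 0.937) and −1.25 without TMM scaling (limma adjusted p = 0.237). IGF1R, a growth factor receptor of the insulin family, had 34.7 ± 2.496 scaled RPM in TGF-beta1 cells and 31.8 ± 5.90 in control cells (SD, n = 2 each), with a limma adjusted p of 0.852. The adaptors CRK and CRKL had limma adjusted p-values of 0.960 and 0.916. NRP1 and NRP2, the neuropilins, had 34 and 39 reads and DCBLD1, the closest relative of DCBLD2, had 28, all too low to test.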

How the data were processed

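The authors' deposited table gives, per site and library, the reads covering a predominant crosslink and the reads carrying it, both in RPM per the file headers. Tools listed per the submitters' processing notes are bcl2fastq 2.20.0.422, bedtools and STAR 2.7.1a, and the build is hg38. GENCODE release 27 is named per the file headers. The crosslink caller is not given in the sources used here. MicroRNA RPM for each seed is a rounded score, and the second deposited list has a score of its own, per the file headers and values. The table has 4 further per-sample columns, of RNA-seq, which were not used. RPM values were whole multiples of 1 read (100% within 0.1 reads), which gave back reads and depth. TMM factors (edgeR 4.0.16) came from these reads. Sites, genes, and gene by feature sums kept by filterByExpr (minimum count 10) were tested with limma 3.58.1 in R 4.3.3 on log2(scaled RPM + 1), fitting the variance as a trend, with two-sided p-values adjusted by Benjamini-Hochberg over each whole table (threshold 0.05). This scale understates the change of low values. edgeR's quasi-likelihood test and DESeq2 1.42.0 on recovered reads were alternatives. The fits were tested on simulated data. Sites named are those tested and the 3 most crosslinked of each class, with 2 exceptions chosen after their values were seen, a 3' UTR site at 3.160 kb and an intronic site at 98825462. The gene, its sites, the gene list and the tests were chosen with earlier results of these data known. One gene that the naming rule also picked is not reported here.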

Additional observations from a re-analysis of the deposited data

How the results depend on the processing

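Groups of 2 libraries limit every comparison, the exact permutation test cannot go below p = 0.33, and 422 of the 428 sites were too low to test singly. Of 236 alternative values, 212 kept the direction and the side of the threshold. Among the 236 are counts of called sites and genes and ratios of crosslinked to covering reads, which have no direction to reverse. For share differences the exact permutation test could not reach the threshold, so 212 overstates the stability. Without TMM scaling the log2 difference of the gene total was −0.269, that of the site at 0.715 kb −0.615 and that of the let-7 site at 0.2 kb −0.563. With no filter on low values the 3' UTR gave 0.024. With covering reads the site at 0.715 kb gave −0.498, the let-7 site −0.222, the site at 3.117 kb 0.065 and the coding share −0.11 points. At sites crosslinked in all 4 libraries, covering reads gave −0.001 for coding sites, −0.442, −0.166 and 0.119 for the sites at 0.715, 0.2 and 3.117 kb, and 1 of 72 DCBLD2 sites as higher, at 98825462 in an intron (limma adjusted p = 0.0115), where 100 of 3692 sites were called higher. The site at 98825462 had 35 and 21 covering reads in the TGF-beta1 libraries, with 6 and 3 crosslinked reads. In the control libraries it had only 4 and 1 covering reads, with 2 and 1 crosslinked reads. Crosslinked reads at sites crosslinked in all 4 libraries gave a coding share difference of −0.24 points. The cause of these shifts was not tested. Some settings were chosen after the data were seen. These were the settings on fully crosslinked sites, on the 3 most crosslinked 3' UTR sites and on sites crosslinked in all 4 libraries with covering reads.

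Leaving out 1 library at a time, the log2 difference ranged from 0.177 to 1.012 for introns, from 0.363 to 0.969 for coding sites, from −0.04 to 0.105 for the 3' UTR and from 0.112 to 0.516 for the gene. The sites gave −0.001 to 0.282 at 0.715 kb, −0.183 to 0.372 at 0.2 kb, −0.778 to 0.013 at 2.262 kb, −1.038 to 0.439 at 3.071 kb, −0.995 to 0.589 at 3.117 kb and, without either control library in turn, −1.131 to −0.564 at 1.814 kb, which was too low to test without a TGF-beta1 library.

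Same-numbered libraries correlated at 0.131 over genes in their deviations from the group means, and 2 pairs are too few to treat the numbers as a pairing. With a replicate block the gene total had a log2 difference of 0.275 (limma adjusted p = 0.0682), introns 0.576 (0.159), coding sites 0.649 (0.212) and the 3' UTR −0.039 (0.92), and no call changed.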
